A study of Mus musculus with 59 samples.

Results

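Induced pluripotent stem cells (iPSC) made from cells labelled PF or TTF were compared with embryonic stem cells (ESC) by the RNA they hold. The comparison took 15 of the 59 mouse lines of the study: all 11 iPSC clones whose origin label reads PFs or TTFs, and the 4 clones titled ESC-1 to ESC-4. Of the iPSC, 2 clones came from PFs of mouse 1 (iPSC-19 and iPSC-20), 3 from PFs of mouse 2 (iPSC-32, iPSC-33 and iPSC-34) and 6 from TTFs of chimera 2 (iPSC-44 to iPSC-49). Each of these 3 origin groups is 1 animal, so source tissue and animal cannot be told apart. PF and TTF are the labels' own terms and are not spelled out there. The ESC carry the label KH2 ESC, targeted. By the study's design text, the donor animals were chimeras grown from ESC with an inducible cassette for the 4 reprogramming factors myc, Klf4, Oct4 and Sox2. The origin labels of the ESC and iPSC do not name the cassette, so they do not show whether the targeted line shares it. The labels give no strain, sex or age for the animals. All lines grew in serum and LIF on irradiated embryonic fibroblasts (MEFs) as feeder cells, and the feeders were reduced by preplating before RNA was taken. Each clone gave 1 array, so the p-values measure the spread between clones.

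Mouse pluripotent cells are held in their state by a network of transcription factors around Oct4 (the product of Pou5f1), Sox2 and Nanog, and by LIF, a cytokine that signals through the receptor pair of Lifr and Il6st to Stat3. Reprogramming resets a body cell to this state, and clones can keep differences in gene activity or in the DNA methylation that silences genes. Known places to look are genes of the starting cell type, germ line genes that DNA methylation keeps silent in body cells, and imprinted genes, which are active from only the maternal or the paternal copy. Feeder fibroblasts left in a culture add their own transcripts, led by collagens and other matrix genes.

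Values are log2 intensities centred near 0 on each array, and a difference of 1 is a 2-fold difference. Differences are iPSC minus ESC throughout, and a gene is called higher or lower where limma, a linear model fitted over all 11807 genes, gave a Benjamini-Hochberg adjusted p under 0.05. The 15 arrays were alike, with a mean correlation of each array with the others between 0.984 and 0.992, and the number of arrays limits the precision. ESC-1 stood apart from the other ESC. The SD of its gene-wise differences averaged 0.347 from the 11 iPSC and 0.428 from the other ESC, while the figures for ESC-2, ESC-3 and ESC-4 were 0.508, 0.507 and 0.480 from the iPSC and 0.274, 0.272 and 0.317 from the other ESC. ESC-2 and ESC-3 were the closest pair among all 59 arrays (SD 0.133, against 0.145 for the next pair). Their values were not identical, and they were kept as 2 clones. Among the iPSC, iPSC-32 had a Pou5f1 level of 0.28, against 4.06 to 4.95 in the other 10 iPSC and 4.71 to 4.90 in ESC. The labels do not say why, and for many results below the count without 1 or more of these clones is given.

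Marker lists checked the labelled cell types. The mean of 6 pluripotency markers (Pou5f1, Sox2, Nanog, Zfp42, Esrrb and Dppa5a) lay between 4.10 and 4.82 in iPSC, with iPSC-32 the lowest, and between 4.79 and 5.01 in ESC. The mean of 10 measured fibroblast and feeder markers ran from 0.56 through a median of 0.99 to 1.82 in iPSC, with iPSC-32 the highest, against 0.65, -0.28, -0.36 and -0.76 in ESC-1, ESC-2, ESC-3 and ESC-4, and 9 of the 10 were called higher. The mean of 6 primitive endoderm markers overlapped (-2.33 to -1.97 in iPSC, -2.29 to -2.02 in ESC). The mean of 6 blood markers was -1.32 to -0.74 in iPSC and -1.61 to -0.99 in ESC, with 1 of 6 called higher (Cd53). Arrays of this kind have no true zero, so no marker can be called absent.

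The PF- and TTF-derived iPSC differed from ESC in 2933 of 11807 genes (24.8%), with 1389 higher (11.8%) and 1544 lower (13.1%). Most differences were small: 107 genes were higher and 130 lower by 2-fold or more, the median size among called genes was 0.44 log2 units, and the median difference over all genes was 0.03. By list, fibroblast and feeder genes (66.0% of measured members) and epiblast genes (44.4%) had the largest shares of higher genes. Glycolysis and hypoxia genes (70.6%), immediate early genes (46.7%) and germ cell genes (41.4%) had the largest shares of lower genes. The lists and their members were chosen with earlier results of these data known, so these shares describe the lists and do not test them. All 11 iPSC lay above all 4 ESC in 369 genes (3.13%) and below all 4 in 416 (3.52%). Set against ESC-2, ESC-3 and ESC-4 alone, all 11 lay above in 1245 genes (10.5%) and below in 1503 (12.7%). ESC-1 lay inside the range of the 11 iPSC in 1881 of the 2933 called genes (64.1%), while ESC-2 did so in 245 (8.35%), ESC-3 in 246 (8.39%) and ESC-4 in 627 (21.4%). The count rested on single ESC clones: it was 3844 when ESC-1 was left out, 1354 for ESC-2, 1323 for ESC-3 and 2086 for ESC-4, while leaving out any 1 iPSC clone left between 2576 and 3227. By direction, 1792 were higher and 2052 lower without ESC-1, 644 and 710 without ESC-2, and 616 and 707 without ESC-3. The counts were 982 and 1104 without ESC-4 and 1573 and 1650 without iPSC-32. List counts from these repeats, given below, are to be read beside these totals. With 1 mean per animal in place of the clones, 984 genes passed (436 higher and 548 lower). That fit takes the 3 animals as the units, and 51 of the 98 called genes named for this comparison lost their call in it, 9 of the 30 largest among them; they are named with their groups below.

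**Figure D1:**
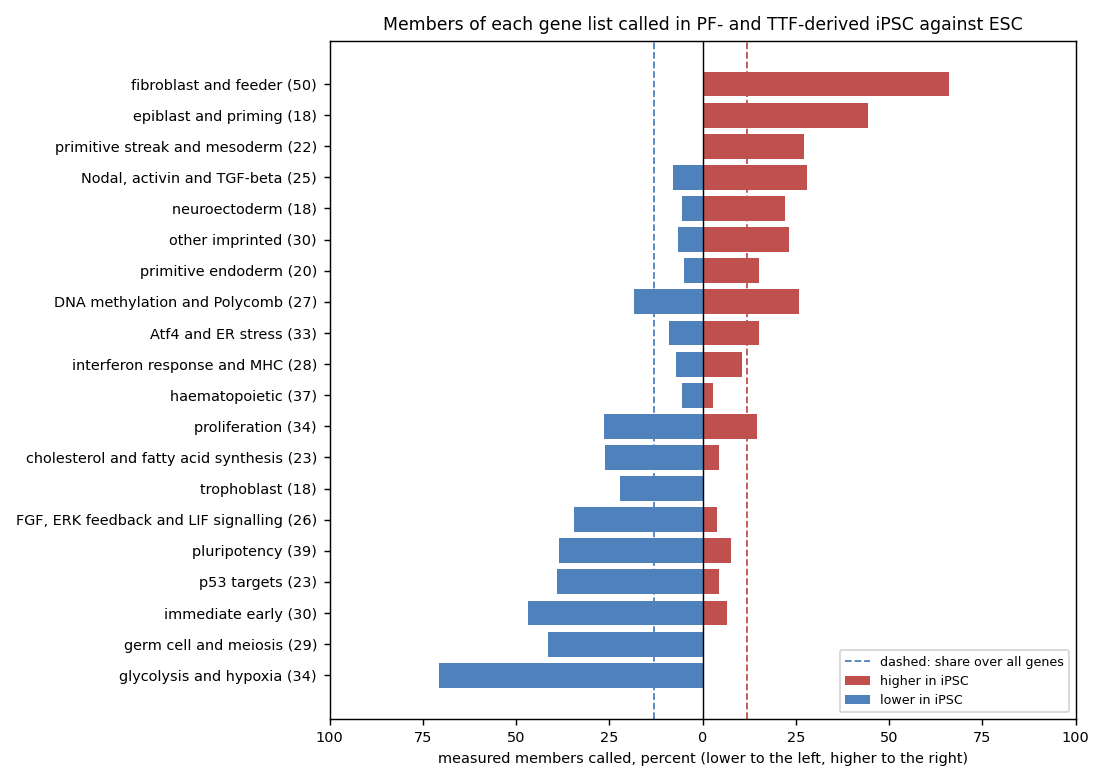
Share of measured members of 20 gene lists called higher (to the right, red) or lower (to the left, blue) in PF- and TTF-derived iPSC against ESC, in percent, with the number of measured members in brackets. Dashed lines mark the shares over all genes, 11.8% higher and 13.1% lower. The fibroblast and feeder list (66.0% higher) and the glycolysis and hypoxia list (70.6% lower) reach furthest. The lists were chosen with earlier results of these data known.

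Most measured genes of fibroblasts and of the extracellular matrix were higher in the iPSC. Of 50 measured members of the fibroblast and feeder list, 33 were higher (66.0%, against 11.8% over all genes) and 0 lower. The median difference was 0.80, against 0.03 over all genes. The list mean ran from 1.26 to 2.22 in iPSC (median 1.58), and was 1.36 in ESC-1, 0.76 in ESC-2, 0.73 in ESC-3 and 0.32 in ESC-4, so that only ESC-1 overlapped the iPSC. All 11 iPSC lay above all 4 ESC in 12 of the 50 genes, against 3.13% of all genes. The list held 37 higher members without ESC-1 and between 25 and 26 without ESC-2, ESC-3 or ESC-4, and 15 with 1 mean per animal. As every culture sat on feeder fibroblasts, and as total RNA of a culture cannot tell more cells of a type from more RNA per cell, the share of feeder RNA in these differences was not tested.

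The list held 7 collagen chains that were higher. Col6a3, a chain of the beaded collagen VI of connective tissue, ran from -0.10 through a median of 0.62 to 1.21 in iPSC, against -0.53, -1.41, -1.38 and -1.86 in ESC-1, ESC-2, ESC-3 and ESC-4. Every iPSC lay above every ESC, and the difference was 1.90 (SE 0.22, 3.73-fold, adjusted p = 1.1e-04). The other collagen VI chains of the list, Col6a1 (1.64) and Col6a2 (1.58), were higher as well, as were the fibril collagens Col1a1 (1.32), Col3a1 (1.13), Col5a1 (1.14) and Col5a2 (1.35). Periostin (Postn), a matrix protein of connective tissue, ran from 1.02 through 1.65 to 2.44 in iPSC, against 1.25, -0.39, -0.43 and -1.21 in ESC-1 to ESC-4 (difference 1.94, SE 0.33, adjusted p = 9.7e-04). Here 10 of 11 iPSC lay above the highest ESC, which was ESC-1. Decorin (Dcn), a small proteoglycan that binds collagen fibrils, averaged 0.96 ± 0.43 in iPSC (SD, n = 11) and -0.88 ± 1.21 in ESC (SD, n = 4), a difference of 1.84 (adjusted p = 0.00229), and only 5 iPSC lay above ESC-1. Neither Postn (adjusted p = 0.0524) nor Dcn (adjusted p = 0.0723) passed with 1 mean per animal. The basement membrane collagens Col4a1 (1.13) and Col4a2 (1.14), listed with primitive endoderm, were higher too, Col4a2 not with 1 mean per animal (adjusted p = 0.0659).

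Other members encode regulators and surface proteins. Twist2, a basic helix-loop-helix repressor of mesenchyme, was higher by 1.84 (adjusted p = 0.00232) and its relative Twist1 by 0.68 (adjusted p = 0.00249), with all 11 iPSC above all ESC for Twist1 and 5 of 11 for Twist2, and Twist2 lost its call with 1 mean per animal (adjusted p = 0.0818). Prrx1, a homeobox gene of limb mesenchyme, differed by 1.79, the smooth muscle actin gene Acta2 by 1.68, and Thy1, a surface protein of fibroblasts, by 1.20. Cadherin-11 (Cdh11), an adhesion protein of mesenchymal cells, ran from 2.02 through 2.66 to 3.31 in iPSC, against 1.78, 0.31, 0.16 and -0.55 in ESC-1 to ESC-4. The groups did not overlap, and the difference was 2.18 (SE 0.30, adjusted p = 2.9e-04). Members that did not pass included fibronectin (Fn1, -0.12), vimentin (Vim, 0.18), Mmp2 (0.11), Ccn2 (-0.16), the mesenchymal repressor gene Snai2 (0.64) and the surface enzyme gene Nt5e (0.24).

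The 15 largest higher differences went beyond that list. They held Mmp10, a matrix-degrading protease, which ran from -0.16 through 0.32 to 0.99 in iPSC, against -0.23, -2.45, -2.55 and -2.51 in ESC-1 to ESC-4. All iPSC lay above all ESC, by a small margin over ESC-1 and by more than 2 log2 units over the other 3, and the difference was 2.24 (SE 0.33, adjusted p = 3.9e-04). Others of this kind were the matrix proteins Tnc (2.00) and Ccn4 (2.28), the protease inhibitor Tfpi2 (2.45), the metalloprotease Adam12 (1.87), the chloride channel regulator Clca3a2 (2.36), and Olr1 (1.98), a receptor for oxidised lipoprotein. The 2 probe sets of Clca3a2 did not share a direction (-0.12 and 2.36), and only 1 was called. Wt1, a zinc finger factor of mesothelium and kidney progenitors, was higher by 2.02 (adjusted p = 0.00578), although it read -2.34 in iPSC-32 and -0.46 in ESC-1. Cd53, a tetraspanin of blood cells, was higher by 1.85 (adjusted p = 0.00111). Tfpi2, Clca3a2, Tnc, Olr1, Wt1 and Cd53 did not pass with 1 mean per animal (adjusted p 0.0716, 0.095, 0.0675, 0.0637, 0.0615 and 0.0512). Cd53 was the only one of 37 measured haematopoietic genes that was higher, so the call did not extend to the other genes of its list. Eif2s3y, the Y-linked gene of a subunit of translation initiation factor eIF2, differed by 2.45 but with wide spread: it ran from -0.81 through 1.55 to 3.78 in iPSC, against 1.24 in ESC-1 and -1.64 to -1.04 in the other ESC. Its call (adjusted p = 0.0381) was lost without ESC-2, ESC-3, ESC-4, iPSC-33, iPSC-34 or iPSC-45, with adjusted p up to 0.128, and with 1 mean per animal (adjusted p = 0.0664).

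**Figure D2:**
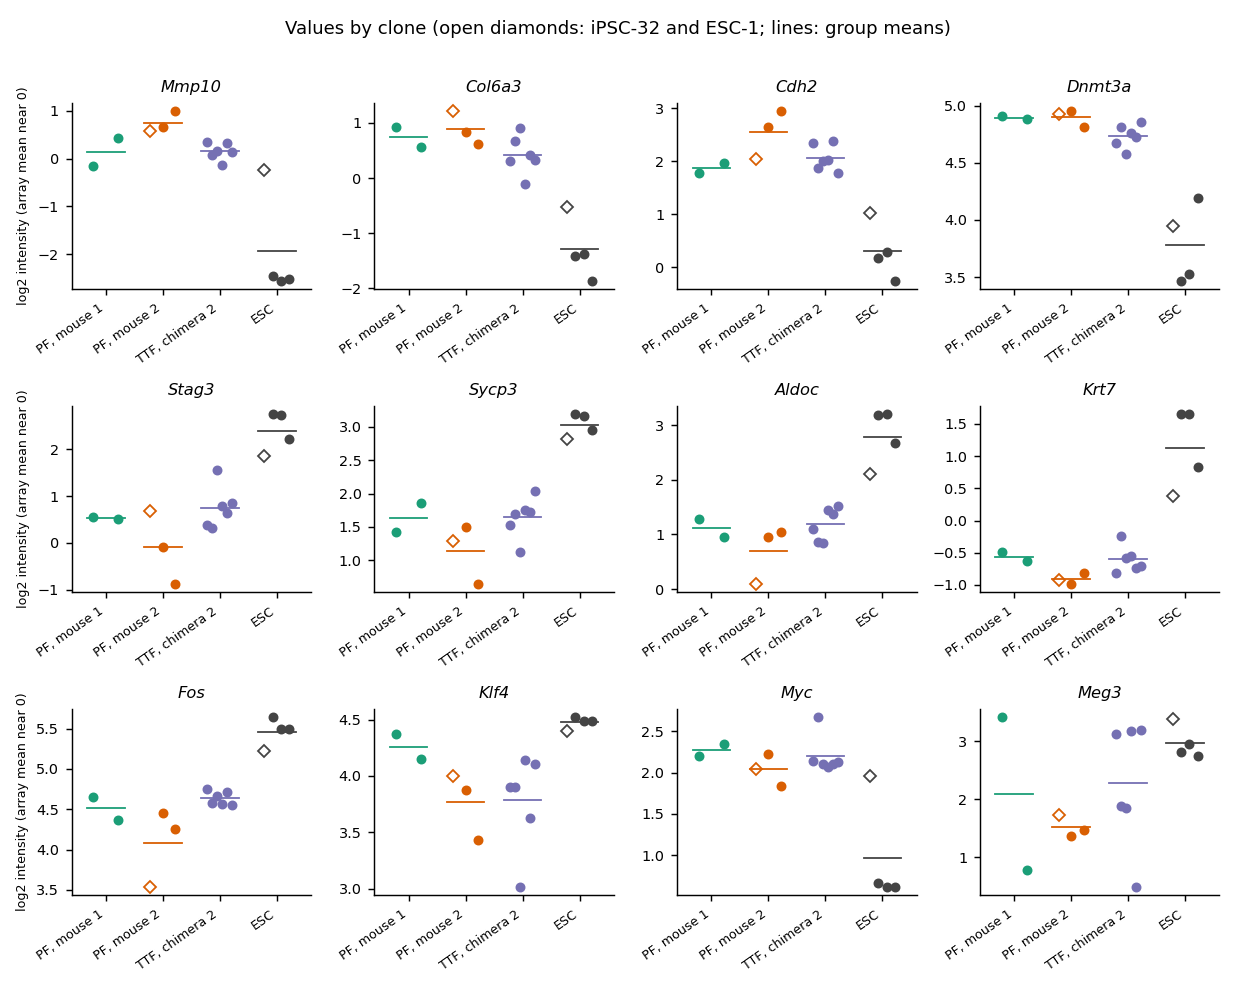
Log2 intensity of 12 genes in each clone, by origin group (PF of mouse 1, n = 2; PF of mouse 2, n = 3; TTF of chimera 2, n = 6; ESC, n = 4), with lines at group means and open diamonds for iPSC-32 and ESC-1. Each panel has its own scale. Mmp10, Col6a3, Cdh2 and Dnmt3a lie above the ESC in every iPSC and Stag3, Sycp3, Aldoc, Krt7, Fos and Klf4 below; Myc overlaps ESC-1, and Meg3 spans from 0.49 to 3.41 in the iPSC.

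Genes of the activin and TGF-beta pathway include ligands, receptors and inhibitors. Of 25 measured members, 7 were higher (28.0%, against 11.8% over all genes) and 2 lower (8.00%, against 13.1%), with a median of 0.08. The higher count was 3 in each repeat that dropped ESC-2, ESC-3 or ESC-4. With 1 mean per animal, 1 was higher and 2 lower, and Inhba and Fst (adjusted p 0.127 and 0.124) did not pass. Among ligands, Inhba, which encodes the subunit of activin A, was higher by 1.80 (SE 0.43, adjusted p = 0.00763), and it read 1.75 in ESC-1 against -1.58 to -0.78 in the other ESC. Among receptors, Tgfbr2 was higher by 1.18 (adjusted p = 0.00309). Follistatin (Fst), which binds and blocks activin, was higher by 1.26 (adjusted p = 0.00702). The target gene Id2, an inhibitor of helix-loop-helix factors that responds to BMP, ran the other way: 1.03 through 1.65 to 2.00 in iPSC, against 2.54, 2.98, 2.96 and 3.07 in ESC-1 to ESC-4. All iPSC lay below all ESC (difference -1.33, SE 0.16, adjusted p = 1.3e-04). Of the genes related to Id2, Id3 was higher (0.51, adjusted p = 0.0394) and Id1 (0.17) did not pass. Nodal (0.08) and its inhibitor Lefty1 (0.44) did not pass.

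Some germ cell and meiosis genes were lower and none measured was higher. Of 29 measured members, 12 were lower (41.4%, against 13.1% over all genes) and 0 higher, with a median of -0.48. The other 17 did not pass. The lower count was 14 without ESC-1 and 14 without iPSC-32. It was 8 in each repeat that dropped ESC-2, ESC-3 or ESC-4, and 10 with 1 mean per animal. Cohesin rings hold sister chromatids together, and meiosis uses its own subunits; all 3 of those measured were lower. Stag3 ran from -0.87 through 0.56 to 1.56 in iPSC, against 1.85, 2.75, 2.74 and 2.22 in ESC-1 to ESC-4. No iPSC reached the lowest ESC, and the difference was -1.91 (SE 0.30, 3.75-fold lower, adjusted p = 6.2e-04). Smc1b ran from -1.17 through -0.68 to 0.86 in iPSC, against 0.67, 1.25, 1.38 and 1.07 in ESC-1 to ESC-4, so that only iPSC-46 entered the ESC range (difference -1.66, SE 0.27, adjusted p = 7.5e-04). Rec8 was lower by a smaller amount (-0.65). Sycp3, a protein of the axis to which meiotic chromatin loops attach, ran from 0.65 through 1.53 to 2.04 in iPSC, against 2.82, 3.19, 3.17 and 2.96 in ESC-1 to ESC-4 (difference -1.53, SE 0.19, adjusted p = 1.4e-04). The groups stood clear of each other by more than the spread in ESC. Hormad1, a protein of unpaired meiotic axes, averaged 0.84 ± 0.50 in iPSC (SD, n = 11) and 2.19 ± 0.43 in ESC (SD, n = 4), a difference of -1.35 (adjusted p = 0.00194).

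Outside meiotic chromosome structure, the lower members were the receptor kinase gene Kit (-1.13), the RNA helicase gene Ddx4 (-1.04), Prdm1 (-1.02), the gene of a repressor that sets germ cell fate, the RNA-binding gene Dazl (-0.80), the recombinase gene Dmc1 (-0.75), Tex11 (-0.54) and Taf7l (-0.48). Members that did not pass included Stra8 (-0.16), Spo11 (0.07), Tdrd1 (0.08) and Dppa3 (-0.40). The list mean ran from -0.09 to 0.44 in iPSC, against 0.41 in ESC-1 and 0.71, 0.72 and 0.72 in ESC-2 to ESC-4; iPSC-32 was the highest iPSC and lay above ESC-1.

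Promoter letters of the 4 lower meiotic genes with the largest differences are shown because these genes moved together. The windows are from RefSeq (assembly GRCm38.p6), 250 bases before to 50 after the start, 5′ to 3′ on the gene's strand, for the first start listed. Capitals mark CACGTG, the E-box core, and GCGGGA or its reverse complement TCCCGC, a core of E2F sites. Stag3 lies at chr5:138280259-138280558 on the plus strand, Smc1b at chr15:85131908-85132207 on the minus strand, Sycp3 at chr10:88459337-88459636 on the plus strand and Hormad1 at chr3:95559427-95559726 on the plus strand.
Stag3: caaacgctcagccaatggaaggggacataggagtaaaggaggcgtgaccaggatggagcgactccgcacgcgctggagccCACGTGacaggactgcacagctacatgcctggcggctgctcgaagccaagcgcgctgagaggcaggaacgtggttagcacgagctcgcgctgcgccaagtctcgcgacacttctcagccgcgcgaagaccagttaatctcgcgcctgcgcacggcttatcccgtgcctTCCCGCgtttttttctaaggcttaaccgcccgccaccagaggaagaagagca
Smc1b: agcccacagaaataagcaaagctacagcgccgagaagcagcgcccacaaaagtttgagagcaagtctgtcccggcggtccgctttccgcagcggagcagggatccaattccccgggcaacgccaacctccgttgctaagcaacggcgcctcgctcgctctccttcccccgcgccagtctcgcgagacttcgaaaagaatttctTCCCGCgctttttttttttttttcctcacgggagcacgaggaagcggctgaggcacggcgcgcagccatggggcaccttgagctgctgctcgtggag
Sycp3: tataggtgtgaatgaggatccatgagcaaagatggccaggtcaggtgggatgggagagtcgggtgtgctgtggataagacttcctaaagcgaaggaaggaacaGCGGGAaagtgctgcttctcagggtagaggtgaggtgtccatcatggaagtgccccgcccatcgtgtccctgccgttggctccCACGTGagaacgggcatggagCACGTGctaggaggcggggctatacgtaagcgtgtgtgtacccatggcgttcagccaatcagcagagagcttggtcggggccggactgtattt
Hormad1: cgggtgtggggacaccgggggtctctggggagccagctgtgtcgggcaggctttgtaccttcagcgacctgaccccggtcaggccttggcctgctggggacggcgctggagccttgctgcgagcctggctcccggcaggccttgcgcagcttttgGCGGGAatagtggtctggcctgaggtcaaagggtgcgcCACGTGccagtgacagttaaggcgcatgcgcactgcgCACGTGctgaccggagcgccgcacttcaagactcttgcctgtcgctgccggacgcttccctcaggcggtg

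Stag3, Sycp3 and Hormad1 held both motifs, and Smc1b held the second only. Of the 12 lower germ cell genes, 11 had a window, of which 5 held CACGTG (Ddx4, Hormad1, Stag3, Sycp3 and Taf7l) and 8 held GCGGGA or TCCCGC. Of the 9 other measured members with a window, 1 and 2 held them. Among all 32851 windows of this length, 7.2% held CACGTG and 20.0% held GCGGGA or TCCCGC. Both strands were searched, and the motifs can share at most an end base. A match describes letters and is not evidence of binding.

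Glycolytic and hypoxia-responsive genes were lower as a group. Of 34 measured members, 24 were lower (70.6%, against 13.1% over all genes) and 0 higher, with a median of -0.53. The count was 25 when ESC-1 was left out, 15 for ESC-2, 14 for ESC-3 and 16 for ESC-4, and 11 with 1 mean per animal. The list mean ran from 2.45 to 2.79 in iPSC (median 2.62), against 2.76 in ESC-1 and 3.27, 3.29 and 3.23 in ESC-2 to ESC-4. ESC-1 thus fell inside the iPSC range here, as it did in the mean of fibroblast markers. In 10 of the 34 genes all iPSC lay below all ESC, against 3.52% of all genes.

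Among enzymes of glycolysis, aldolase C (Aldoc) ran from 0.10 through 1.04 to 1.52 in iPSC, against 2.11, 3.18, 3.20 and 2.67 in ESC-1 to ESC-4. No iPSC reached the lowest ESC (difference -1.75, SE 0.22, 3.36-fold lower, adjusted p = 1.9e-04). The other probe set of Aldoc was called too, with a smaller difference of -0.36. Hexokinase 1 (Hk1), which traps glucose in the cell, averaged -0.51 ± 0.39 in iPSC and 0.74 ± 0.45 in ESC (SD, n = 11 and 4), a difference of -1.26 (adjusted p = 0.001). Enolase 2 (Eno2, -0.83), Pfkl (-0.64), Pfkp (-0.62) and Tpi1 (-0.52) were lower, while Ldha (-0.10), Pkm (-0.13), Gapdh (-0.01), Hk2 (-0.05) and the glucose transporter gene Slc2a1 (-0.11) did not pass. Among the responders to low oxygen, Ndrg1 ran from -0.40 through 0.31 to 0.71 in iPSC, against 0.35 in ESC-1 and 2.05 to 2.18 in the other ESC. ESC-1 lay among the iPSC, and the difference was -1.43 (SE 0.28, adjusted p = 0.00229). The carbonic anhydrase genes Car12 (-1.03) and Car9 (-0.80), the mitophagy gene Bnip3 (-1.02), the angiogenic ligand gene Vegfa (-0.96) and the oxygen-sensing hydroxylase genes Egln3 (-1.07) and Egln1 (-0.53) were also lower. The call of Egln3 (adjusted p = 0.0355) was lost without ESC-2, ESC-3, ESC-4, iPSC-20, iPSC-33 or iPSC-34, with adjusted p up to 0.136. Neither Ndrg1 (adjusted p = 0.0729) nor Egln3 (adjusted p = 0.105) passed with 1 mean per animal. Pygl, the liver form of the enzyme that breaks down glycogen, was outside this list and was among the 15 largest lower differences (-1.93, adjusted p = 6.5e-04).

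The core letters of the element through which hypoxia-inducible factors act, ACGTG or on the other strand CACGT, were searched in the same way and are in capitals in the windows of Aldoc (chr11:78322823-78323122, plus strand) and Egln3 (chr12:54203825-54204124, minus strand), shown as an enzyme and an oxygen sensor of the list.
Aldoc: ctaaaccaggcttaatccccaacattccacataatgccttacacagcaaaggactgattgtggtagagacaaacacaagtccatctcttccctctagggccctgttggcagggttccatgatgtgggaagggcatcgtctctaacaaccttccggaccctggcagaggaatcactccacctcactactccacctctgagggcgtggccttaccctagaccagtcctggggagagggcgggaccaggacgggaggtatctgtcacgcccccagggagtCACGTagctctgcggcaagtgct
Egln3: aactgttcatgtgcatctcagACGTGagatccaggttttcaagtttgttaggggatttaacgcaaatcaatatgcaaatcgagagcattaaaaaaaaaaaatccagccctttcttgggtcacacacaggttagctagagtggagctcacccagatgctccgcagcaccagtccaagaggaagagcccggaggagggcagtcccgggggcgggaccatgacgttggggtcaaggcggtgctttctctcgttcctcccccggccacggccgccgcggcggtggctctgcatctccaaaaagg

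Of the 24 lower genes, 21 had a window, and 11 of those held the letters; of the 10 other members with a window, 6 did. Over all windows the share was 19.6%. The letters were thus found both in members that were lower and in members that were not, and Hk1 held none in its window.

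**Figure D3:**
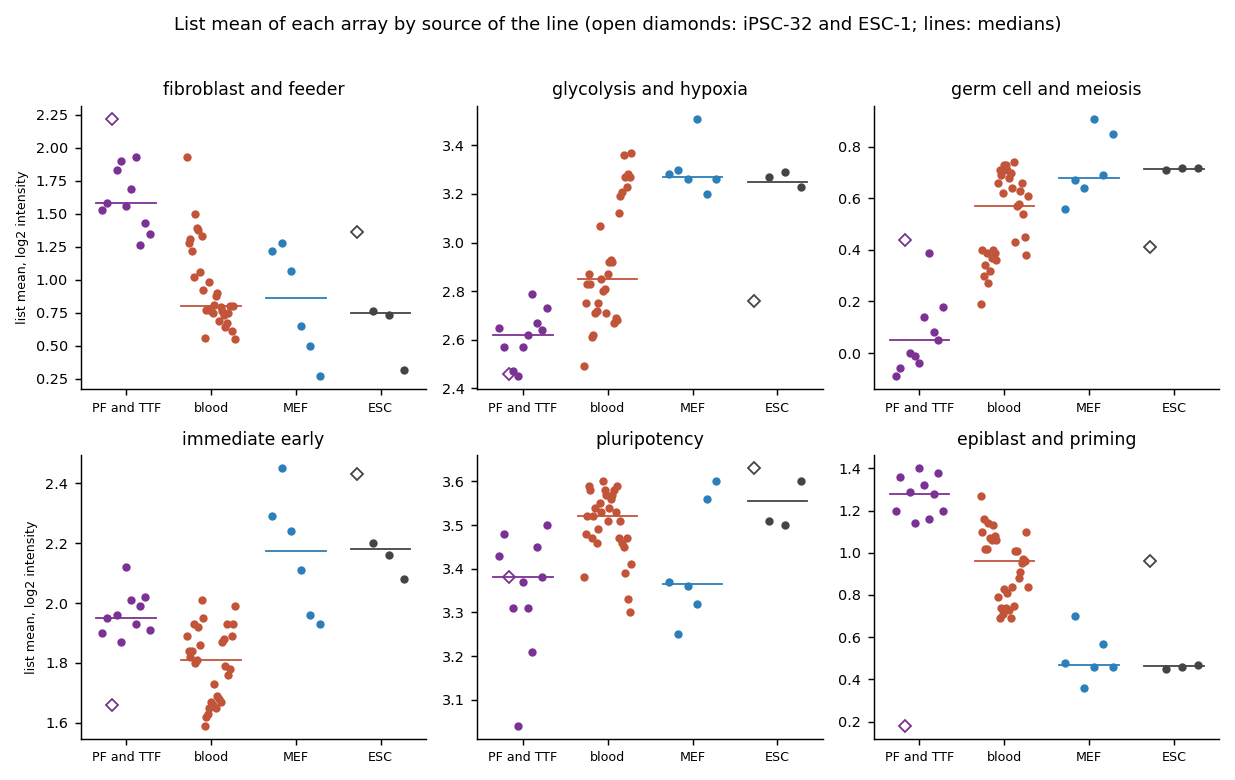
Mean log2 intensity over the measured members of 6 gene lists in each array, for PF- and TTF-derived iPSC (n = 11), blood-derived iPSC (n = 31), MEF-derived iPSC (n = 6) and ESC (n = 4); lines are medians and open diamonds are iPSC-32 and ESC-1. In the fibroblast and feeder panel ESC-1 (1.36) lies within the PF- and TTF-derived range of 1.26 to 2.22, and in the glycolysis and hypoxia panel ESC-1 (2.76) lies within 2.45 to 2.79. In the pluripotency panel all 11 iPSC lie at 3.50 or lower, against 3.50 to 3.63 in ESC.

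Immediate early genes, which growth signals switch on within minutes, were lower in 14 cases of 30 (46.7%, against 13.1% over all genes). Of the other measured members, 2 were higher (6.67% of the 30, against 11.8%) and 14 did not pass, and the median was -0.26. The lower count was 12 without ESC-1, 9 without ESC-2 and 8 without ESC-3. In 11 of the 30 genes all iPSC lay below all ESC, as they did in 3.52% of all genes. ESC-1 was the ESC furthest from the iPSC here, with a list mean of 2.43, against 2.08 to 2.20 in the other ESC and 1.66 to 2.12 in iPSC. Fos, a partner in the AP-1 transcription factor, ran from 3.54 through 4.57 to 4.75 in iPSC, against 5.22, 5.64, 5.50 and 5.49 in ESC-1 to ESC-4. No iPSC reached the lowest ESC (4.46 ± 0.34 in iPSC, 5.46 ± 0.18 in ESC, SD, n = 11 and 4; SE of the difference 0.17, adjusted p = 9.2e-04). Its relative Fosb was lower by 1.30 on the log2 scale (adjusted p = 0.00702), and the other AP-1 genes Jun (-0.76), Junb (-0.41) and Jund (-0.39) were lower too. The zinc finger gene Egr2 (-0.83, adjusted p = 0.0246) lost its call without ESC-1, ESC-2 or ESC-3 (adjusted p 0.0584, 0.0761 and 0.0625), and Egr1 was lower by a smaller amount (-0.29). The higher members were Dusp2 (0.51) and Myc.

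Myc, 1 of the 4 genes of the cassette, ran from 1.84 through 2.13 to 2.67 in iPSC, against 1.96, 0.66, 0.62 and 0.62 in ESC-1 to ESC-4. ESC-1 lay inside the iPSC range and the other 3 ESC far below it. The difference was 1.20 (SE 0.20, 2.31-fold, adjusted p = 7.4e-04), and 1.54 without ESC-1. The call was lost with 1 mean per animal (adjusted p = 0.0561). Whether the Myc probe set also detects RNA of the cassette was not tested. Cyclin D2 (Ccnd2), which drives entry into the cell cycle, was higher by 1.31 (adjusted p = 1.9e-04) with all iPSC above all ESC and all 6 probe sets called. Over the 34 measured proliferation genes, 5 were higher (14.7%, against 11.8% over all genes) and 9 lower (26.5%, against 13.1%), with a median of -0.07. There were 2 higher and 5 lower without ESC-2, and 1 higher and 3 lower with 1 mean per animal. The cell cycle inhibitor gene Cdkn1b (-0.77), the mitotic kinase gene Aurkb (-0.68) and the transcription factor gene Mybl2 (-0.60) were lower. ESC-1, with 2.05 for Cdkn1b and 1.82 for Aurkb, lay in the iPSC range for both, and neither passed with 1 mean per animal (adjusted p 0.0866 and 0.117).

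Targets of p53 were lower where they differed in all but 1 gene. Of 23 measured members, 9 were lower (39.1%, against 13.1% over all genes) and 1 was higher (Rprm, 0.38), with a median of -0.26. Without ESC-1, 10 were lower and 2 higher, and without iPSC-32, 11 were lower and 1 higher. Without ESC-2 or without ESC-3, 5 were lower and 0 higher, and with 1 mean per animal 2 were lower and 0 higher. Gadd45b, a stress-response gene, ran from 2.10 through 2.52 to 2.83 in iPSC, against 3.27, 3.98, 4.05 and 3.25 in ESC-1 to ESC-4. The groups did not overlap (difference -1.11, SE 0.16, adjusted p = 2.9e-04). Polk, a polymerase that copies past DNA damage, was lower (-0.59), as were the nucleotide enzyme gene Rrm2b (-0.54) and the death receptor gene Tnfrsf10b (-0.45). Rrm2b lost its call without any of 11 clones, ESC-2, ESC-3 and ESC-4 among them (adjusted p up to 0.182), and ESC-1, at 1.49, lay below all iPSC. Polk just missed the threshold with 1 mean per animal, and Tnfrsf10b (adjusted p = 0.0508) and Rrm2b (adjusted p = 0.234) did not pass there. The p53 inhibitor gene Mdm2 (-0.15) and Ccng1 (-0.14) did not pass.

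Part of the pluripotency network was lower by small amounts. Of 39 measured members, 15 were lower (38.5%, against 13.1% over all genes) and 3 higher (7.69%, against 11.8%). The median was -0.30, and 21 did not pass. The lower count was 18 when iPSC-32 was left out, 5 for ESC-2 or ESC-3 and 7 for ESC-4, and with 1 mean per animal 10 were lower and 0 higher. Sox2 ran from 3.73 through 4.06 to 4.32 in iPSC, against 4.27, 4.38, 4.36 and 4.54 in ESC-1 to ESC-4, a difference of -0.31 (SE 0.09, adjusted p = 0.0205). Klf4 ran from 3.02 through 3.90 to 4.37 in iPSC, against 4.40, 4.52, 4.49 and 4.49 in ESC-1 to ESC-4, with no overlap (difference -0.61, SE 0.18, adjusted p = 0.0222). Both calls were lost without ESC-2, ESC-3 or ESC-4 (adjusted p 0.0655, 0.0599 and 0.0814 for Sox2; 0.0758, 0.0719 and 0.0555 for Klf4), and that of Sox2 also with 1 mean per animal (adjusted p = 0.0713). Nanog did not pass (4.89 ± 0.15 in iPSC, 5.09 ± 0.14 in ESC, SD, n = 11 and 4; adjusted p = 0.102), but did without ESC-1 (adjusted p = 0.0427) and without iPSC-32 (adjusted p = 0.0457). Pou5f1 did not pass (-0.58, adjusted p = 0.513), with 4.35 and 4.42 in the PF clones of mouse 1, 0.28, 4.06 and 4.28 in those of mouse 2, and 4.85 to 4.95 in the TTF clones.

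Of other transcription factor genes of the list, Tfcp2l1 (-0.62), Esrrb (-0.61), Klf2 (-0.37) and the orphan receptor gene Nr5a2 (-0.75) were lower, while Tbx3 (-0.54), Klf5 (-0.52), Nr0b1 (-0.40) and Zfp42 (-0.16) did not pass. Tfcp2l1 lost its call without ESC-2, ESC-3 or ESC-4 (adjusted p up to 0.0855). Tcl1 (-0.66), a cofactor of the kinase Akt, kept its call without any 1 clone, and all iPSC lay below all ESC. Nr5a2 (adjusted p = 0.0425) lost it without any of 9 clones, among them ESC-2, ESC-3 and ESC-4, and with 1 mean per animal (adjusted p = 0.139). Dppa2 (0.60), Foxd3 (0.44) and Trim28 (0.26) were higher.

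Genes of LIF and FGF signalling overlap with that list. Of 26 measured members, 9 were lower (34.6%, against 13.1% over all genes) and 1 higher (3.85%, against 11.8%), with a median of -0.10. The lower count was 3 without ESC-2 or without ESC-3, 5 without ESC-4 and 4 with 1 mean per animal. The LIF receptor chains Lifr (-0.59) and Il6st (-0.30) were lower, while Lif (-0.02) and Stat3 (0.01) did not pass. Socs3, a Stat3 target that shuts the pathway off, ran from 0.64 through 0.82 to 1.06 in iPSC, against 1.79, 1.52, 1.47 and 1.07 in ESC-1 to ESC-4. Every iPSC lay below every ESC, though ESC-4 by a margin smaller than the spread (difference -0.64, SE 0.10, adjusted p = 7.4e-04, just missing the threshold with 1 mean per animal). Fgf4, the main FGF of ESC, was lower (-0.44). Etv1, an ETS factor, was higher by 1.52 (adjusted p = 3.9e-04), with 10 of 11 iPSC above the highest ESC.

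Among markers of the epiblast, the tissue into which naive cells develop, 8 of 18 measured members were higher (44.4%, against 11.8% over all genes). There were 0 lower, and the median was 0.51. The higher count was 5 without ESC-2 or without ESC-3, 11 without iPSC-32 and 4 with 1 mean per animal. The list mean was 0.18 in iPSC-32 and 1.14 to 1.40 in the other 10 iPSC, against 0.96 in ESC-1 and 0.45, 0.46 and 0.47 in ESC-2 to ESC-4. N-cadherin (Cdh2) ran from 1.77 through 2.03 to 2.94 in iPSC, against 1.03, 0.17, 0.28 and -0.25 in ESC-1 to ESC-4. All iPSC lay above all ESC (difference 1.85, SE 0.22, adjusted p = 1.3e-04); Cdh2 is also a gene of mesenchymal cells. The homeobox gene Gbx2 (1.22, adjusted p = 0.00182), the helix-loop-helix gene Tcf15 (0.93, adjusted p = 0.00603), Fgf5 (0.63) and Sox4 (0.59) were higher. Wnt8a, a Wnt ligand, was higher by 1.57 (adjusted p = 0.0294), but read -3.02 in iPSC-32, below all ESC, and its call was lost without ESC-2, ESC-3 or ESC-4 (adjusted p up to 0.107). Otx2 (-0.09) and Pou3f1 (0.66) did not pass. Gbx2 and Tcf15 did not pass with 1 mean per animal (adjusted p 0.0524 and 0.0637).

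Other early lineages moved less. Of 22 measured primitive streak and mesoderm genes, 6 were higher (27.3%, against 11.8% over all genes) and 0 lower (median 0.32). The higher count was 10 without ESC-1, 2 without ESC-2 or without ESC-3, and 3 with 1 mean per animal. The 6 higher ones were Mixl1 (0.85), Twist1 (0.68), Cdx1 (0.62), Foxf1 (0.42), Kdr (0.42) and Msx1 (0.32). Of these, Mixl1, Cdx1 and Kdr did not pass with 1 mean per animal (adjusted p 0.0567, 0.0561 and 0.0952). Twist1 is in the fibroblast list too. The others had means below the array medians (-0.204 to -0.106) in both iPSC and ESC. Kdr averaged -2.48 and -2.90, Foxf1 -2.02 and -2.44, and Cdx1 -1.47 and -2.09. Of 18 neuroectoderm genes, 4 were higher (22.2%, against 11.8% over all genes) and 1 lower (5.56%, against 13.1%), with a median of 0.23. Without ESC-1, 7 were higher. In each repeat that dropped ESC-2, ESC-3 or ESC-4, 3 were higher and 0 lower, and with 1 mean per animal 0 were called in either direction. The neuronal tubulin gene Tubb3 ran from 1.97 to 2.51 in iPSC, against 0.72 to 1.93 in ESC (difference 0.95, adjusted p = 0.00171), and the adhesion gene Ncam1 was higher by 0.96 (adjusted p = 0.00529), with ESC-1 (2.97) inside the iPSC range. Dll1, a Notch ligand, was lower (-0.89, adjusted p = 0.0276) and lost its call without ESC-2, ESC-3 or ESC-4. Adjusted p with 1 mean per animal was 0.0665 for Tubb3, 0.0949 for Ncam1 and 0.0704 for Dll1. Of 20 primitive endoderm genes, 3 were higher (15.0%, against 11.8% over all genes) and 1 lower (5.00%, against 13.1%). The higher ones were Col4a1, Col4a2 and Sparc and the lower one Apoe (-0.94), while the defining factors Gata6 (0.08) and Sox17 (-0.27) did not pass. The counts were 1 higher and 0 lower with 1 mean per animal, where Sparc and Apoe did not pass (adjusted p 0.108 and 0.0552).

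Of 18 trophoblast genes, 4 were lower (22.2%, against 13.1% over all genes) and 0 higher (median -0.03). Keratin 7 (Krt7), an epithelial filament protein of trophoblast, ran from -0.98 through -0.70 to -0.24 in iPSC, against 0.38, 1.65, 1.65 and 0.83 in ESC-1 to ESC-4. The groups stood clear of each other (difference -1.81, SE 0.19, 3.50-fold lower, adjusted p = 5.8e-05). The transcription factor genes Gata2 (-1.49, adjusted p = 0.0018), Tfap2c (-0.57) and Ets2 (-0.36) were the other lower members. Without ESC-1, 5 were lower and 2 higher, and 3 were lower without ESC-2, ESC-3 or ESC-4. The lower count was 2 with 1 mean per animal, where Gata2 (adjusted p = 0.0808) and Ets2 (adjusted p = 0.0846) did not pass. Cdx2 (0.41), Eomes (-0.08) and Elf5 (0.18), which define trophoblast stem cells, did not pass.

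The remaining large lower differences had no shared list. Calml4, a calmodulin-like gene, was lower by 2.13 on the log2 scale (adjusted p = 5.7e-04); 10 of 11 iPSC lay below the lowest ESC, which was ESC-1 with 1.08. Dner, a transmembrane protein with EGF repeats, ran from -1.40 through -0.49 to 0.42 in iPSC, against 0.80, 2.23, 2.32 and 1.14 in ESC-1 to ESC-4 (difference -2.12, adjusted p = 5.8e-04). The groups did not overlap. Adssl1, the muscle form of an enzyme of AMP synthesis, had the smallest spread of the 15 lower genes in iPSC (-1.13 ± 0.13, against 0.78 ± 0.82 in ESC; SD, n = 11 and 4), a difference of -1.90 (adjusted p = 9.9e-05). The others were the fibrinogen chain gene Fgg (-1.83), Alpk3 (-1.80), the glutathione transferase gene Gstm3 (-1.77), Inca1 (-1.74), an inhibitor of cyclin-dependent kinase, the arginine deiminase gene Padi2 (-1.70), D7Ertd143e (-1.70) and Lrriq4 (-1.65). The other probe set of Gstm3 was called too, with a smaller difference of -0.45.

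Imprinted genes moved one by one. In the Dlk1-Dio3 region, the 2 measured maternal noncoding transcripts spanned a wide range in iPSC. Meg3 was 3.41 and 0.78 in the PF clones of mouse 1, 1.36 to 1.73 in those of mouse 2, and 0.49 to 3.19 in the TTF clones, against 3.38, 2.81, 2.95 and 2.74 in ESC-1 to ESC-4. Rian was 3.52 and 1.64, 1.74 to 2.73, and 1.41 to 3.78 in those groups, against 3.45 to 3.71 in ESC. In iPSC-19, iPSC-44, iPSC-47 and iPSC-49 both transcripts read above the lowest ESC, and in the other 7 both read below it. Neither passed (Meg3 -0.93, SE 0.48, adjusted p = 0.162; Rian -0.90, SE 0.41, adjusted p = 0.117). With 1 mean per animal, which sets aside the spread between clones of an animal, both were called lower (adjusted p 0.0391 for Meg3 and 0.0281 for Rian). The paternally expressed Dlk1 did not pass either (0.33, adjusted p = 0.33).

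Of the 30 other imprinted genes measured, 7 were higher and 2 lower (median 0.02), and 2 were higher without ESC-2, without ESC-3 or with 1 mean per animal. Of the higher genes, 4 belong to the cluster of the Prader-Willi syndrome region, which is active from the paternal copy. Magel2 ran from -2.44 through -1.05 to -0.37 in iPSC, with iPSC-32 the lowest, against -1.57, -2.56, -2.45 and -2.44 in ESC-1 to ESC-4. The difference was 1.02 (SE 0.27, adjusted p = 0.0126), and the call was lost without ESC-2 or ESC-3 (adjusted p 0.0636 and 0.0577) or with 1 mean per animal (0.0557). Snrpn (0.69, adjusted p = 7.1e-04, all 3 probe sets called) and Snurf (0.61, adjusted p = 0.00359) share a transcript and are not independent, and Ndn was higher by 0.57. Their neighbours Mkrn3 (-0.56) and Peg12 (0.02) did not pass. Igf2, a growth factor gene, was higher by 0.60 (adjusted p = 0.0251), lost without ESC-2, ESC-3 or ESC-4 and with 1 mean per animal (adjusted p = 0.145).

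Chromatin modifiers changed in both directions. Of 27 DNA methylation and Polycomb genes, 7 were higher (25.9%, against 11.8% over all genes) and 5 lower (18.5%, against 13.1%), with a median of 0.05. It was 2 and 2 without ESC-3, and 2 and 0 with 1 mean per animal. Dnmt3b, Ezh1 and Phc2 (0.44) did not pass in the last of these (adjusted p 0.0718, 0.147 and 0.113). Dnmt3a, which sets new DNA methylation, ran from 4.58 through 4.81 to 4.95 in iPSC, against 3.95, 3.47, 3.53 and 4.19 in ESC-1 to ESC-4. Each iPSC lay above each ESC (difference 1.02, SE 0.11, 2.03-fold, adjusted p = 6.5e-05). The related Dnmt3b was higher by 0.41 (adjusted p = 0.0139, lost without ESC-2 or ESC-3), and Dnmt1 (0.13) and Dnmt3l (0.24) did not pass. Of the Polycomb methyltransferase genes, Ezh1 was lower by 0.77 on the log2 scale (adjusted p = 0.0231, lost without ESC-2, ESC-3 or ESC-4) and Ezh2 by 0.41, while their partners Eed (-0.05) and Suz12 (-0.07) did not pass.

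**Figure D4:**
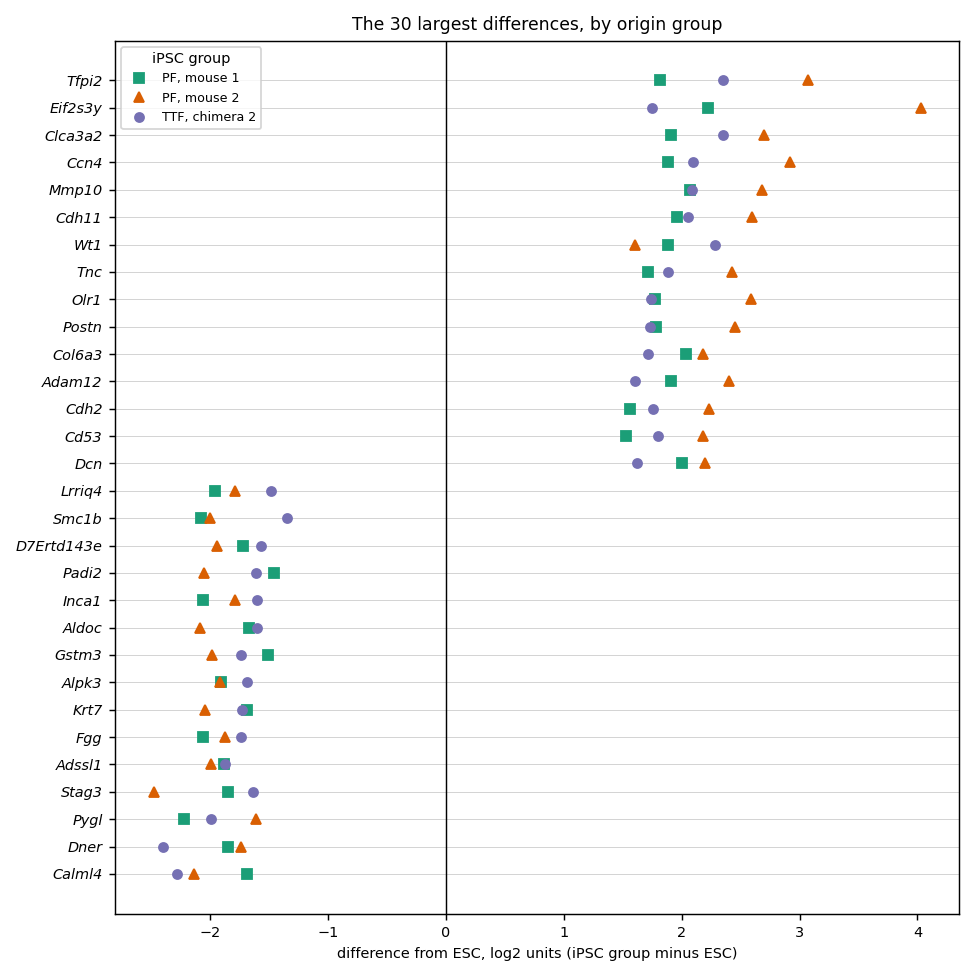
Difference from ESC (log2 units) of the mean of each iPSC origin group, for the 15 largest higher and the 15 largest lower genes of the comparison of all 11 iPSC with ESC (squares: PF of mouse 1, n = 2; triangles: PF of mouse 2, n = 3; circles: TTF of chimera 2, n = 6; 4 ESC in each). All 3 groups lie on the same side of 0 for every gene shown; the genes were chosen from the same clones, so this side was fixed in part by the choice.

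The origin groups were then set against ESC 1 by 1, in a fit where the 4 groups shared 1 estimate of spread and all 3 contrasts shared the ESC. The 2 PF clones of mouse 1 differed from ESC in 720 genes (6.10%), 297 higher (2.52%) and 423 lower (3.58%). The 3 PF clones of mouse 2 differed in 2815 (23.8%), 1364 higher (11.6%) and 1451 lower (12.3%). The 6 TTF clones of chimera 2 differed in 2002 (17.0%), 973 higher (8.24%) and 1029 lower (8.72%). These counts moved with single clones. The first was 10 without iPSC-19, 184 without ESC-2, 185 without ESC-3, 212 without iPSC-20, 469 without ESC-4, 1093 without iPSC-32 and 2298 without ESC-1. The second was 1589 without ESC-3, 1614 without ESC-2, 1651 without iPSC-34 and 3895 without ESC-1. The third was 793 without ESC-3, 806 without ESC-2 and 3296 without ESC-1. The fibroblast list had 13 higher members in PF clones of mouse 1 (median 0.72), 40 in those of mouse 2 (median 1.16) and 27 in TTF clones (median 0.65). The glycolysis and hypoxia list had 9, 21 and 16 lower members in the same order (medians -0.47, -0.62 and -0.49), and the germ cell list 10, 11 and 9 (medians -0.64, -0.46 and -0.39), with 1 higher member in the clones of mouse 2. Notum, which removes a lipid from Wnt ligands, was among the 5 largest higher genes of the PF clones of mouse 1 (1.99), and the homeobox gene Hesx1 among the 5 largest lower (-2.05).

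Whether the 3 origin groups differed from each other was tested directly. The F test found 80 genes (0.678%), 29 of them with group means at least 1 log2 unit apart, while 1382 had an unadjusted p under 0.05. The count was 123 without ESC-1, and it fell to 51 without ESC-2, 26 without iPSC-19, 53 without iPSC-20, 41 without iPSC-44, 38 without iPSC-47, 44 without iPSC-48 and 45 without iPSC-49. Of the 50 fibroblast genes 1 was among the 80, and of the 34 glycolysis and hypoxia genes 0 were.

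Some genes set 1 origin group apart, and others set both PF groups apart from the TTF clones. Ctr9, a subunit of the Paf1 complex that travels with RNA polymerase II, read 0.93 and 1.02 in the PF clones of mouse 1, 2.78 to 2.94 in those of mouse 2 and 2.83 to 2.97 in the TTF clones, against 2.46 to 2.70 in ESC. Only the clones of mouse 1 lay apart (F test adjusted p = 3.2e-08) on the probe set used here. Its 3 probe sets did not share a direction in the comparison of all 11 iPSC with ESC, where their differences ran from -0.08 to 0.44. Gt(ROSA)26Sor, the noncoding transcript of the Rosa26 locus that is a common site for transgenes, read 0.67 and 0.94 in the PF clones of mouse 1, -0.94, -1.14 and -1.73 in those of mouse 2 and 1.34 to 2.40 in the TTF clones, against 0.98 to 1.49 in ESC. Clones of mouse 2 lay below all others (adjusted p = 1.6e-05). Mid1, a microtubule-binding ubiquitin ligase gene, read 2.10 and 1.90, 0.41 to 0.73, and 0.21 to 1.05 in the 3 groups, against 1.34 to 1.72 in ESC (adjusted p = 0.00663). The clones of mouse 1 lay above all ESC and the other iPSC below all ESC. Mapt, the gene of the neuronal protein tau, read -2.22 and -2.60, -2.12 to -1.73, and -1.29 to -0.36, against -1.15 to -0.46 in ESC, so that it was low in both PF groups and near ESC in TTF clones (adjusted p = 0.00992). The zinc finger gene Zfp386 had group means of -0.52, -0.27 and 1.11, against 0.69 in ESC (adjusted p = 0.00574). The potassium channel gene Kcnk4 had means of -0.66, -1.23 and 0.22, against 0.88 in ESC (adjusted p = 0.0147). The other 6 of the 12 widest were Trim12a, Fmr1nb, Ubd, Mt4, Polr3gl and Tchh, with ranges of group means between 1.42 and 2.08.

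Of the genes named for the comparison with ESC, Nr5a2 and Fosb also differed between origin groups. Nr5a2 averaged 1.69 ± 0.05, 1.55 ± 0.33 and 0.68 ± 0.31 in clones from PF of mouse 1, PF of mouse 2 and TTF (SD, n = 2, 3 and 6), against 1.86 ± 0.13 in ESC (SD, n = 4; F test adjusted p = 0.0203). The TTF clones were the low ones. Fosb averaged 0.38, -0.25 and 0.99, against 1.83 in ESC (adjusted p = 0.0404), with iPSC-32 at -1.14.

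**Figure D5:**
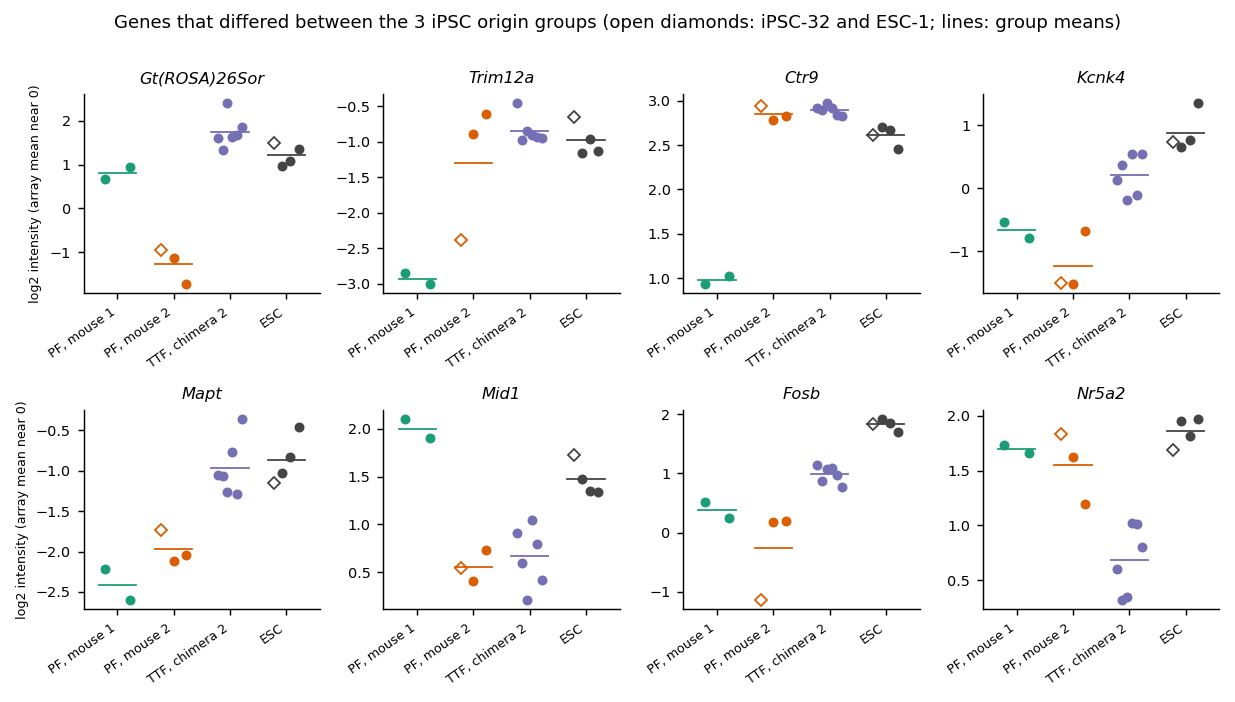
Log2 intensity by clone and origin group for 8 genes that differed between the 3 iPSC origin groups (F test over PF of mouse 1, PF of mouse 2 and TTF of chimera 2), with ESC for comparison; lines are group means and open diamonds are iPSC-32 and ESC-1. Ctr9 is 0.93 and 1.02 in the 2 clones of mouse 1 and 2.78 to 2.97 in the other iPSC, Gt(ROSA)26Sor lies below 0 in the 3 clones of mouse 2 only, and Nr5a2 is lowest in the TTF clones.

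Single clones also departed from the rest, and the genes named here were chosen after their values were seen. In iPSC-32, 195 genes lay at least 1 log2 unit below the median of the other 10 iPSC and 217 as far above it, and 38 lay more than 1 below all other 14 arrays. Besides Pou5f1 these included the Nodal inhibitor gene Lefty1 (0.01 in iPSC-32, against 2.98 or more in the other iPSC and 2.28 to 3.55 in ESC), Prom1 (-0.33, against 2.12 or more and 1.97 to 2.80) and the interferon-induced gene Gbp2 (-1.29, against 1.61 or more and 0.32 to 2.13). Far above all others in that clone were Rhox5 and A2m. In iPSC-34, 12 genes lay more than 1 above all other arrays, led by interferon-induced genes such as Gbp3, Gbp2b, Tgtp1 and Cxcl11. In iPSC-46, 8 genes lay more than 1 below and 18 more than 1 above all others. The low ones included Ccnb1ip1, Prmt5 and Ttc5 and the high ones the Y-linked genes Uba1y and Uty. The other 8 iPSC clones held at most 1 such gene in either direction.

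To see where the difference from ESC is unequal between kinds of iPSC, the PF- and TTF-derived clones were set against other iPSC of the same study, tests in which ESC take no part. Against the 6 MEF-derived clones of chimera 1, 4960 genes differed (42.0%), 2345 higher (19.9%) and 2615 lower (22.1%) in PF- and TTF-derived clones. Source cell and animal cannot be told apart there. Against the 31 blood-derived clones (HSC, GMP and granulocyte labels) from the same 3 animals, with animal as a term, 5903 differed (50.0%), 2569 higher (21.8%) and 3334 lower (28.2%). Both tests took clones as the units although the clones came from few animals, and neither was repeated with 1 mean per animal. The p-values and list counts given below for these tests share that limit. The largest differences from MEF-derived clones were these. Tfpi2 (0.20 ± 0.63 in PF- and TTF-derived clones, -2.99 ± 0.31 in MEF-derived clones, SD, n = 11 and 6; 3.20, adjusted p = 3.4e-08), Clca3a2 (3.09), Ccn4 (2.87), Mmp10 (2.76), the protease gene Mmp3 (2.52) and Cdh11 (2.51) were higher. Pygl (-2.19), Inca1 (-2.17), Smc1b (-2.14), Adssl1 (-2.10), Ndrg1 (-2.04) and Rwdd3 (-2.02) were lower.

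The largest difference from blood-derived clones was that of Mcts2, an imprinted retrogene with a role in translation. It read 3.80 ± 0.22 in PF- and TTF-derived clones and 1.17 ± 0.89 in blood-derived clones (SD, n = 11 and 31). With animal as a term, the fitted difference was 2.36 (adjusted p = 5.9e-12), which is not the plain difference of these means. ESC read 3.46 ± 0.01 (SD, n = 4). PF- and TTF-derived clones were thus the ones near ESC in that gene, with a difference of 0.34 (adjusted p = 0.0354, lost without any of 5 clones and with 1 mean per animal). Next came Sprr2a1 (1.88), Prl2c2 (1.84), Olr1 (1.82), the axon guidance receptor gene Nrp1 (1.66) and Dcn (1.62). Lower than in blood-derived clones were Smc1b (-1.40), the AMP deaminase gene Ampd3 (-1.34), Alpk3 (-1.33), A2m (-1.26), Hormad1 (-1.25) and Ankrd44 (-1.23).

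By list, 37 of 50 fibroblast and feeder genes were higher and 2 lower than in MEF-derived clones (median 0.75), and 45 were higher and 0 lower than in blood-derived clones (median 0.85). Glycolysis and hypoxia genes were lower in 27 of 34 (1 higher, median -0.70) and in 30 of 34 (0 higher, median -0.37). Germ cell genes were lower in 17 of 29 (0 higher, median -0.61) and in 19 of 29 (4 higher, median -0.45). The median over all genes was 0.02 against MEF-derived clones and rounded to 0 against blood-derived clones. The gap from blood-derived clones was unequal between animals. In mouse 1 the fibroblast list means of the PF clones (1.53 and 1.58) lay within its blood-derived range (0.92 to 1.93). So did their glycolysis means (2.57 and 2.65, within 2.49 to 3.07). In mouse 2 the fibroblast means were 1.83 to 2.22 against 0.56 to 0.98. Those of chimera 2 were 1.26 to 1.93 against 0.55 to 0.80. In the same order the glycolysis means were 2.45 to 2.47 against 2.67 to 2.93, and 2.57 to 2.79 against 3.12 to 3.37. The fibroblast marker mean ran from 0.56 to 1.82 in PF- and TTF-derived clones, from -0.74 to 0.38 in MEF-derived clones and from -0.30 to 1.22 in blood-derived clones, and its part in these differences was not tested. Epiblast genes were higher than in MEF-derived clones in 11 of 18 (0 lower), but 6 were higher and 2 lower than in blood-derived clones. Immediate early genes were lower than in MEF-derived clones in 12 of 30 (5 higher) and higher than in blood-derived clones in 13 of 30 (5 lower). Fos was 4.46 ± 0.34 in PF- and TTF-derived clones, against 5.42 ± 0.17 in MEF-derived clones, 4.63 ± 0.20 in blood-derived clones and 5.46 ± 0.18 in ESC (SD, n = 11, 6, 31 and 4). Dnmt3a was 4.81 ± 0.12 in PF- and TTF-derived clones, against 3.84 ± 0.55 in MEF-derived clones, 5.11 ± 0.17 in blood-derived clones and 3.79 ± 0.34 in ESC. Meg3 and Rian, which did not pass against ESC, were higher than in MEF-derived clones (1.39 and 1.48) and than in blood-derived clones (1.34 and 1.37). ESC-2, ESC-3 and ESC-4 lay close to the MEF-derived clones (mean SD of the difference 0.275, 0.271 and 0.302), and ESC-1 did not (0.454).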

How the data were processed

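RNA of each clone was labelled and hybridised to 1 Affymetrix array, per the labels' protocols. The authors deposited 1 table of 22626 probe sets by 59 arrays. Its deposited values were taken as log2 intensities with each array's mean near 0: the scale was read from the values (-4.83 to 6.97), since the labels name no background correction, summarisation, log base, scan date or batch. Probe sets were named through the platform annotation and RefSeq symbols (18003 had 1 gene, 287 several and 4336 none), and each of 11807 genes was read from its brightest probe set, by the mean of the 59 arrays.

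Differences were tested by 2-sided moderated tests in limma 3.58.1 (R 4.3.3; lmFit, then eBayes), with Benjamini-Hochberg adjustment over all genes and a threshold of 0.05, after the fit was tested on simulated data. The main comparison used 15 arrays and no covariate. Origin groups were compared in 1 fit with 4 group means, and blood-derived clones with animal as a term. Named genes are the 15 largest differences in each direction, up to 4 called members of each list, the reprogramming factors, Nanog, Meg3, Rian and Dlk1, the 12 widest among origin groups, the 5 largest per origin group, and the 6 largest against other iPSC. Further list members were chosen after their values were seen. Predicted genes were left out of the names. The members and lists were chosen with earlier results of these data known. Alternatives covered normalization, filters (genes under the 40th percentile), probe sets, animals and left-out clones.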

Additional observations from a re-analysis of the deposited data

Results flagged for a closer look

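In the named genes, 206 groups of values (4 ESC, or 6 TTF clones) were checked for a single clone far from the others by Dixon's test, and 25 held one. Chance gives about 1 in 20 for independent groups of independent values. These genes were chosen from the same arrays, and ESC-2 and ESC-3 were nearly alike, so the 25 cannot be set against that rate. ESC-1 accounted for 15 of the 25, which are flags of 1 array and not separate findings. It was the ESC far above the others in Tfpi2 (-0.09), Ccn4 (1.24), Mmp10 (-0.23), Wt1 (-0.46), Olr1 (-1.34), Twist2 (0.37), Magel2 (-1.57) and Myc (1.96), and in Cebpb, a transcription factor gene of the stress response (0.86). It was far below the other ESC in Calml4 (1.08), Alpk3 (0.74), Hormad1 (1.54), Ndrg1 (0.35), Cdkn1b (2.05) and Aurkb (1.82).

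Among the TTF clones, iPSC-46 stood apart in 7 genes: Dcn (1.22), Inca1 (-0.73), Smc1b (0.86), the p53 targets Polk (1.39) and Rrm2b (2.36), and the stress genes Atf5 (1.87) and Ddit3 (2.26). The clone iPSC-45 stood apart in Kit (0.50), Myc (2.67) and Inhba (1.64).

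By the F test, the difference from ESC was unequal between the 3 origin groups in 2 genes named for the comparison with ESC. The group means spanned 1.01 log2 units in Nr5a2 and 1.24 in Fosb.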

How the results depend on the processing

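The count of 2933 genes moved by over 1.5 times under several alternatives. With 1 mean per animal it was 984, without the 6 TTF clones of chimera 2 it was 1702, with ESC-2 and ESC-3 averaged as 1 clone (chosen after seeing the data) 1338, and with all 59 arrays in 1 fit 4464. Leaving out 1 clone gave 1323 to 3844 genes for all 11 iPSC against ESC, 10 to 2298 for PF clones of mouse 1, 1589 to 3895 for PF clones of mouse 2, 793 to 3296 for TTF clones and 26 to 123 for the F test. The cause was not tested. Under quantile normalization (2811), without genes under the 40th percentile (2598) and with animal as a random block (2411 with ESC as 1 block, 2611 with each ESC its own), it stayed within 1.5 times. Of 103 genes named for the comparison with ESC, 98 were called and 73 of those kept the call without any 1 clone, while dropping ESC-2 or ESC-3 cost 25 calls each and dropping ESC-4 cost 21. With 1 mean per animal, read for single genes and lists after seeing the data, 51 of the 98 calls were lost (adjusted p up to 0.234) and 2 genes, Meg3 and Rian, gained one. None of these alternatives turned the direction of a called gene among these 103. No paired analysis was possible because the clone numbers run through the study and no number is shared between the groups compared. With 4 ESC and 3 source animals, array number limits the precision.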

Other observations

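Other gene groups of the same comparison had small median differences. Of 23 measured cholesterol and fatty acid synthesis genes, 6 were lower in PF- and TTF-derived iPSC (26.1%, against 13.1% over all genes). In the other direction 1 was higher (4.35%, against 11.8%), and the median was -0.10. The lower count was 3 without ESC-2 or without ESC-3 and 2 with 1 mean per animal. Lanosterol synthase (Lss, -0.62) and the sterol oxidase Msmo1 (-0.49) were lower, and fatty acid synthase (Fasn, 0.60) was higher, each with no overlap between the 11 iPSC and the 4 ESC. Of 33 genes of the Atf4 and endoplasmic reticulum stress response, 5 were higher (15.2%, against 11.8% over all genes). A further 3 were lower (9.09%, against 13.1%), and the median was -0.03. Both shares were near those over all genes. Among them were Atf5 (0.64) and Cebpb (0.45) as higher and Ddit3 (-0.50) as lower. Without ESC-1, 6 were higher and 8 lower, and without ESC-3, 1 was higher and 2 lower. The counts were 0 higher and 1 lower with 1 mean per animal, where Atf5, Cebpb and Ddit3 did not pass (adjusted p 0.161, 0.11 and 0.0688).

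Of 28 interferon response and antigen presentation genes, 3 were higher (10.7%, against 11.8% over all genes) and 2 lower (7.14%, against 13.1%). The median was 0.15, and neither share was above that over all genes. The immunity GTPase gene Irgm1 (1.17), the class I gene H2-D1 (1.07) and the regulator Irf7 (0.37) were higher, and H2-Q1 (-1.52) and Stat2 (-0.76) lower. Without ESC-2, ESC-3 or ESC-4, 1 was higher, and with 1 mean per animal limma called 0 in either direction. Probe sets of class I genes may detect more than 1 of these similar genes. Of 37 haematopoietic genes, 1 was higher (2.70%, against 11.8% over all genes) and 2 were lower (5.41%, against 13.1%). The lower ones were Kit (-1.13) and Prtn3 (-0.32), the second not with 1 mean per animal (adjusted p = 0.104). The 4 measured genes of the state that resembles the embryo at its first cleavage held 0 called genes by limma, with a median of 0.05.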
